A study of Mus musculus with 12 samples.

Results

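The 37 genes carried by the mouse mitochondrial genome were examined in T-ALL cells with and without PKF118-310. Members were all genes whose symbol begins with mt- in the deposited counts, which gave 37 of 52535 listed genes, namely 13 protein-coding genes, 2 rRNA genes and 22 tRNA genes. All 37 positions matched the mitochondrial genes of the GENCODE vM21 annotation. The cells were 3 lymphoma lines, 240, 242 and 352, each from a different Akt2;Dlx5 double transgenic mouse. Both transgenes are driven in thymocytes by the Lck promoter, and the Akt2 protein is a myristoylated, active form, so treated and control cells alike carry them. Treated cells received PKF118-310, a small molecule that interferes with the binding of β-catenin to Tcf factors. According to the study, control cells received placebo. The labels give no dose or time. Each line supplied 1 PKF118-310 library and 1 control library, each run on 2 lanes whose counts were summed, so that there were 3 libraries in each group.

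The mitochondrial genome is a small circular DNA that is transcribed on both strands into long RNAs. These are cut where tRNAs lie between the other genes, which releases the mRNAs and rRNAs. The mRNAs encode core subunits of respiratory complexes I, III and IV and of ATP synthase, and the rRNAs and tRNAs serve the ribosomes that translate them inside the organelle. In these data 28 genes lay on the plus strand of the reference and 9 on the minus strand. Most of the mRNAs carry short poly(A) tails, whereas tRNAs receive a CCA end. Libraries were made from RNA captured on poly(T) beads, so the levels given here are those of captured RNA.

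Neighbouring and copied sequence bears on how these genes can be counted, so the sequences concerned are shown first. The 3 tRNA genes with the most counts were mt-Tl1 for leucine (chrM:2676-2750, plus strand), mt-Tw for tryptophan (chrM:4950-5016, plus strand) and mt-Tp for proline (chrM:15356-15422, minus strand). They are printed 5′ to 3′ from GENCODE vM21 (GRCm38, mm10), with the anticodon in capitals.
mt-Tl1: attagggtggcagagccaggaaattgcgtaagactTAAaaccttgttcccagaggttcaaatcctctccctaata
mt-Tw: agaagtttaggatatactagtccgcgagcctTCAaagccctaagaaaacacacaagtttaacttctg
mt-Tp: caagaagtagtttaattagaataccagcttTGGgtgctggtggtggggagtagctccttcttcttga

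Among annotated nuclear transcripts, 7 of the 13 mRNA genes have a copy that matches at least 50 bases with 99% identity or more. All 7 copies lie side by side on the minus strand at chr1:24611535-24616197. The copies of mt-Co2, mt-Atp6, mt-Co3, mt-Nd4l and mt-Nd4 are identical over the aligned bases. Those of mt-Nd3 and mt-Co1 differ at 1 base of 345 and 1 base of 483 aligned. The stretches around these differences are shown with the differing base in capitals, since they are the places in the alignments where a read can tell gene from copy. Positions count from 1 at the first base of the mitochondrial gene, and the substitutions are T3C for mt-Nd3 to Gm28438 and A1066T for mt-Co1 to Gm29216. The 4 stretches are chrM:9459-9486 (plus strand), chr1:24613092-24613119 (minus strand), chrM:6390-6418 (plus strand) and chr1:24616160-24616188 (minus strand).
mt-Nd3: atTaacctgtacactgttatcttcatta
Gm28438: atCaacctgtacactgttatcttcatta
mt-Co1: ggaAttgttttatccaactcatcccttga
Gm29216: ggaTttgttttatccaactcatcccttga

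Sequence is also shared inside the mitochondrial genome, where mt-Atp8 and mt-Atp6 overlap by 43 bases (chrM:7927-7969, plus strand) and mt-Nd4l and mt-Nd4 by 7. In the first overlap the start codon of mt-Atp6 and the stop codon of mt-Atp8 are in capitals.
mt-Atp8 and mt-Atp6: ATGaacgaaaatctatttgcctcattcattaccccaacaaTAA

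Library depth ran from 604984 counts in line 242 after PKF118-310 to 13766638 in line 352 after PKF118-310. The shallowest library, treated line 242, also held the highest mitochondrial share, 11.8%, against 1.84 to 3.10% in the other 5. Genes with a count were more numerous after PKF118-310 than in the control of each line, at 18155, 21241 and 21049 after PKF118-310 in lines 240, 242 and 352, against 15150, 14175 and 17495 in controls. The nuclear-retained RNA Malat1 stood at 767, 1250 and 3132 CPM after PKF118-310, against 480, 301 and 1980 CPM in controls. The 16 thymocyte and transgene markers summed to 3684 to 7707 CPM after PKF118-310, against 6443 to 7427 CPM in controls, with the lowest sum in treated line 242, and 15 or 16 of them had a count in each library. The 19 markers of other cell types summed to 121 to 164 CPM after PKF118-310, against 130 to 176 CPM in controls, and 9 to 11 of them had a count after PKF118-310, against 4 to 9 in controls. The part of these differences in the mitochondrial values was not tested, and results are therefore given with and without line 242.

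Mitochondrial genes supplied between 1.84% and 11.8% of all counts. The 13 mRNA genes made up 2.61% (95% Wilson interval 2.60 to 2.63%), 8.72% (8.65 to 8.80%) and 2.28% (2.27 to 2.28%) of the counts after PKF118-310 in lines 240, 242 and 352. In controls they made up 2.83% (2.82 to 2.85%), 2.69% (2.68 to 2.71%) and 1.71% (1.71 to 1.72%). The treated share was thus slightly below its control in line 240, 3.24 times its control in line 242 and 1.33 times its control in line 352, and the groups overlapped. The mean log2 ratio was 0.66 ± 0.93 (SD, n = 3 lines), and an exact paired permutation test gave p = 0.5, where 0.25 is the smallest value that 3 pairs allow (two-sided). Without line 242 the mean log2 ratio was 0.15. In bulk counts, more mitochondrial RNA and less nuclear RNA per cell cannot be told apart, nor can a shift in the mixture of cells. The intervals cover counting error only.

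The rRNA share differed from control by a larger factor than the mRNA share in lines 242 and 352. Their share was 0.287%, 3.11% and 0.279% after PKF118-310 in lines 240, 242 and 352, against 0.266%, 0.248% and 0.119% in controls. For every 100 mitochondrial mRNA counts there were 11.0, 35.7 and 12.3 rRNA counts after PKF118-310, against 9.38, 9.20 and 6.94 in controls. Every treated library lay above every control in this ratio, which does not depend on nuclear RNA. The mean log2 ratio was 1.002 ± 0.88 (SD, n = 3 lines), higher in 3 of 3 lines, with the smallest exact paired p that the design allows (p = 0.25). It was 0.52 without line 242. The direction depended on which mRNAs were counted. For 6 mRNA genes no near-identical copy was found among annotated nuclear transcripts. Against these there were 19.5, 65.7 and 22.2 rRNA counts per 100 after PKF118-310, against 20.0, 16.2 and 21.2 in controls. The ratio was then slightly below control in line 240 and nearly level in line 352.

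**Figure D1:**
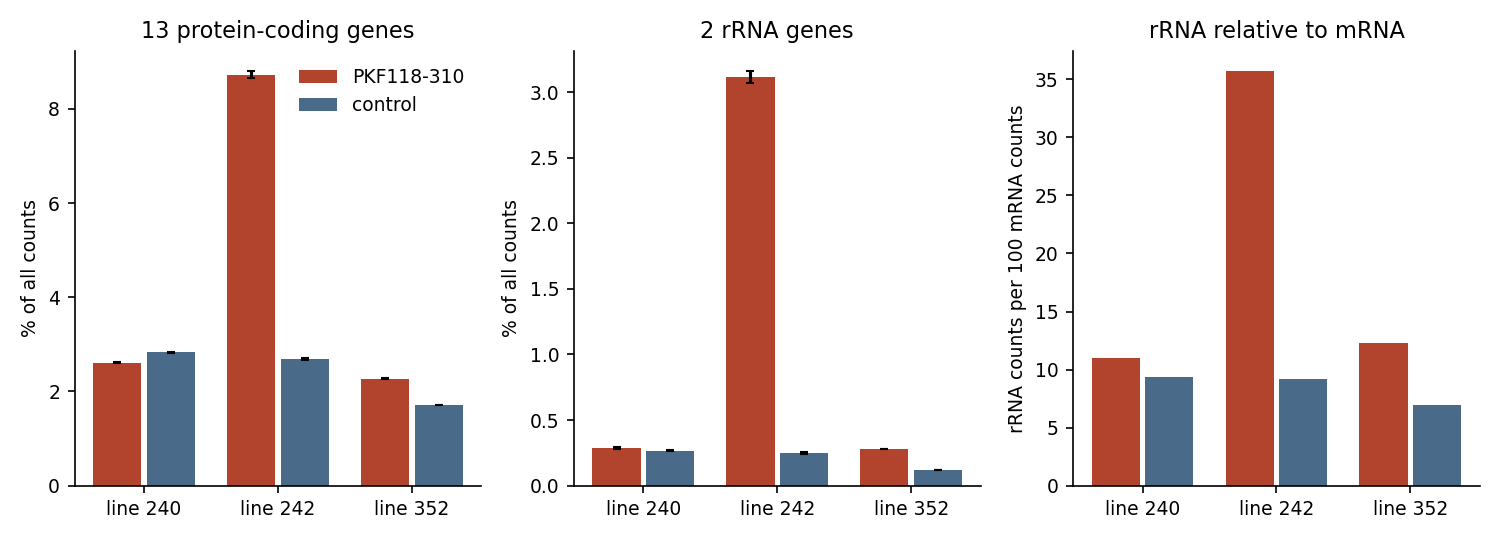
Share of all counts from the 13 mitochondrial mRNA genes (left) and the 2 rRNA genes (middle), and rRNA counts per 100 mRNA counts (right), by line, with PKF118-310 beside control. Bars are single libraries and error bars on the shares are 95% Wilson intervals for counting error. The treated library of line 242 reached 8.72%, 3.11% and 35.7 in the 3 panels, and the rRNA to mRNA ratio was higher after PKF118-310 in each line.

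In the fit of all 3 lines no gene passed the threshold, mitochondrial or nuclear. The edgeR quasi-likelihood test with line as a block kept 10331 genes, among them 13 mRNA, 2 rRNA and 2 tRNA genes of the mitochondrion, and 0% of them had an adjusted p below 0.05. At an unadjusted p below 0.05 there were 570 genes, 257 of them higher (2.49% of those tested), and 4 of the 17 mitochondrial genes, all higher. These were mt-Cytb, mt-Nd1, mt-Nd2 and mt-Nd6. With DESeq2 45 genes were called, 35 of them higher (0.36% of those with an adjusted p), and with limma voom and sample weights 801 (7.75%), and neither call included a mitochondrial gene. The median log2 fold change of the 13 mRNA genes was 1.05, beside 0.00 over all genes tested. Within lines this median was 0.23, 1.79 and 0.56 in lines 240, 242 and 352. Of the 17 mitochondrial genes, 12 were higher in all 3 lines and 0 were lower in all 3, where 15.9% of all genes tested were higher in all 3. In CPM, all 3 treated libraries lay above all 3 controls for mt-Rnr2, mt-Co2, mt-Atp6 and mt-Co3, a pattern found in 3.35% of the genes tested. With the counts of near-identical nuclear copies added to the last 3 of these, it held for mt-Atp6 but no longer for mt-Co2 and mt-Co3, which were then below control in line 240.

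Lines 240 and 352 alone gave calls. In this fit of 11760 genes, 20 of them mitochondrial, 5.01% of all genes were called higher and 5.92% lower (edgeR quasi-likelihood, adjusted p below 0.05). The mitochondrial genes called were mt-Cytb, mt-Nd2, mt-Rnr2 and mt-Tl1, all 4 higher after PKF118-310, and 0 were called lower. The median of the 13 mRNA genes was 0.46, beside -0.01 over all genes tested. With 2 lines the fit rests on 4 libraries, so the spread used for a gene is largely estimated from all genes together. The within-line log2 ratios of called genes were unequal in lines 240 and 352, at 0.35 and 1.24 for mt-Cytb and 0.23 and 1.54 for mt-Rnr2.

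Among the 7 subunits of complex I, the NADH dehydrogenase that feeds electrons into the chain, mt-Nd1 and mt-Nd2 had the highest ratios in line 352. The core membrane subunit gene mt-Nd1 stood at 4877, 21923 and 4149 CPM after PKF118-310 in lines 240, 242 and 352, against 4413, 5678 and 1628 CPM in controls. Each treated library was above its own control, although the groups overlapped. Its log2 fold change over 3 lines was 1.18 (SE 0.46, edgeR adjusted p = 0.842), and without line 242 it was 0.74 (SE 0.22, adjusted p = 0.0528). For mt-Nd2, which encodes another proton-pumping subunit, the libraries held 2522, 7559 and 2002 CPM after PKF118-310, against 2166, 2573 and 750 CPM in controls. Its log2 fold change was 1.10 (SE 0.37, adjusted p = 0.842) over 3 lines. It rose by 0.81 (SE 0.22, adjusted p = 0.0314) in lines 240 and 352, where the difference lay mainly in line 352 (log2 ratio 1.40, against 0.23 in line 240).

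The remaining complex I genes lie further along the genome. The antiporter-like subunit gene mt-Nd4 was at 1294, 5531 and 1140 CPM after PKF118-310, against 1224, 1171 and 631 CPM in controls, and its within-line log2 ratios were 0.09, 2.33 and 0.83. For mt-Nd5, its neighbour with a related function, the values were 2304, 4218 and 1999 CPM after PKF118-310, against 2773, 2449 and 1338 CPM in controls. It was thus lower than control in line 240 and higher in lines 242 and 352. The subunit gene mt-Nd6, the mRNA gene of the minus strand, had 111, 119 and 52.4 CPM after PKF118-310, against 61.0, 78.1 and 47.0 CPM in controls. Here line 240, not line 242, showed the largest ratio, with log2 values of 0.87, 0.70 and 0.14. The short genes mt-Nd3 and mt-Nd4l held only 3 to 63 counts per library, and mt-Nd4l reversed between lines, at -1.38 in line 240, 1.45 in line 242 and 1.03 in line 352. None of these 5 genes passed in either fit (3-line adjusted p from 0.842 to 0.943).

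Complex III, the cytochrome bc1 complex, has mt-Cytb as its mitochondrially encoded member. This gene had 4929, 13529 and 4400 CPM after PKF118-310 in lines 240, 242 and 352, against 3899, 4524 and 1838 CPM in controls. Each treated library exceeded its own control, and the lowest treated value was just below the highest control. The log2 fold change was 1.09 (SE 0.36, adjusted p = 0.842) over 3 lines, and mt-Cytb rose by 0.79 (SE 0.19, adjusted p = 0.0218) in lines 240 and 352.

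Complex IV, cytochrome c oxidase, takes its catalytic core from mt-Co1, mt-Co2 and mt-Co3. The heme-bearing subunit gene mt-Co1 lay below control in 2 of 3 lines. It stood at 9982, 33710 and 8881 CPM after PKF118-310, against 13686, 10364 and 10809 CPM in controls, so it was below control in lines 240 and 352 and above it in line 242. The 3-line log2 fold change was 0.32 (SE 0.58, adjusted p = 0.9497), and without line 242 it was -0.38 (SE 0.17, adjusted p = 0.172). Counts of the copper-binding subunit gene mt-Co2 came to 58.8, 350 and 50.3 CPM after PKF118-310, against 42.9, 43.2 and 47.3 CPM in controls. Those of mt-Co3 came to 27.2, 169 and 25.3 CPM after PKF118-310, against 24.3, 23.0 and 24.2 CPM in controls. Apart from line 242 these last ratios were small, at 0.46 and 0.07 for mt-Co2 and 0.17 and 0.04 for mt-Co3 on the log2 scale.

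ATP synthase has mt-Atp6, which encodes part of the proton channel, and mt-Atp8. The first had 31.6, 111 and 37.0 CPM after PKF118-310, against 23.3, 20.9 and 27.0 CPM in controls, with no overlap between groups. Its log2 fold change was 1.05 (SE 0.46, adjusted p = 0.842) over 3 lines and 0.44 (SE 0.16, adjusted p = 0.0961) without line 242. The mt-Atp8 counts were 4 to 104 per library, and its log2 ratios of 0.77, 1.82 and 0.55 were all above 0.

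**Figure D2:**
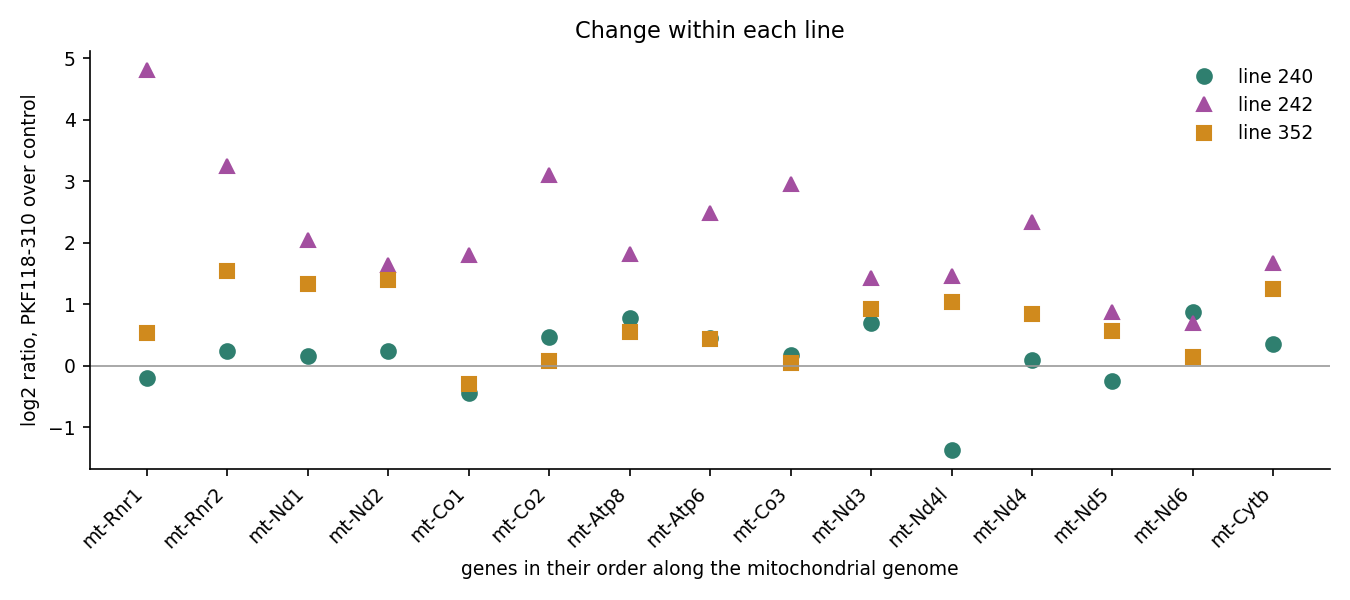
Log2 ratio of PKF118-310 over control within each line for the 15 mRNA and rRNA genes, in their order along the mitochondrial genome. Each point is 1 line, from TMM-scaled CPM with a prior count of 2. Line 242 had the largest ratio for 14 of 15 genes, with 4.81 for mt-Rnr1, and mt-Co1 lay below 0 in lines 240 and 352.

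The 2 rRNA genes did not move in step. The small-subunit rRNA gene mt-Rnr1 had 649, 13709 and 713 CPM after PKF118-310, against 749, 519 and 487 CPM in controls. It was lower than control in line 240, higher in line 352 and 4.81 higher on the log2 scale in line 242. The large-subunit rRNA gene mt-Rnr2 had 2223, 17419 and 2081 CPM after PKF118-310, against 1908, 1958 and 704 CPM in controls, with no overlap. Its log2 fold change was 1.66 (SE 0.65, adjusted p = 0.842) over 3 lines, and it rose by 0.89 (SE 0.23, adjusted p = 0.0302) in lines 240 and 352. The number of mt-Rnr2 counts per mt-Rnr1 count was 3.43, 1.27 and 2.92 after PKF118-310, against 2.55, 3.77 and 1.45 in controls. The ratio was thus above control in lines 240 and 352 and below it in line 242. Relative to 100 counts of mt-Nd1, the mRNA gene that follows them, there were 13.3, 62.5 and 17.2 counts of mt-Rnr1 after PKF118-310, against 16.98, 9.14 and 29.9 in controls.

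Per length, the counted mRNA reads spanned a wide range. The ranks below describe counted reads only, because reads that match both a gene and its nuclear copy may not all have been counted. In RPKM, mt-Co1 was the highest mRNA in 5 of 6 libraries, with 6461, 21819 and 5748 RPKM after PKF118-310 and 8858, 6708 and 6996 RPKM in controls. In treated line 242 mt-Nd1 was higher, at 22908 RPKM. In 5 libraries the order mt-Co1, mt-Nd1, mt-Cytb led the list, whereas mt-Nd1, mt-Co1 and mt-Cytb led in treated line 242. At the low end, mt-Nd6 stood at 214, 229 and 101 RPKM after PKF118-310, against 118, 150 and 90.6 RPKM in controls. The genes mt-Co2, mt-Atp6 and mt-Co3 lay below it in every library except treated line 242, where mt-Co2 was at 512 RPKM. They ranged from 32.2 to 512 RPKM after PKF118-310, against 29.3 to 69.2 RPKM in controls. Of neighbours in this order, mt-Nd1 exceeded mt-Cytb in 6 of 6 libraries, whereas mt-Nd2 and mt-Nd5 changed places in the control of line 352 (722 and 734 RPKM) and mt-Nd5 and mt-Nd4 in treated line 242 (2313 and 4014 RPKM). With the counts of their chromosome 1 copies added, mt-Co2, mt-Atp6 and mt-Co3 instead lay above mt-Nd6 in every library. The lowest of these sums was 338 RPKM, for mt-Co3 in the control of line 242.

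Of the genes that make up mitochondrial mRNA, mt-Co1 had a share that was alike in the treated lines and unlike in the controls. It supplied 38.2%, 38.6% and 39.0% of mitochondrial mRNA counts after PKF118-310 in lines 240, 242 and 352, against 48.3%, 38.5% and 63.0% in controls. The treated values lay within 1 percentage point of each other (SD 0.43), whereas the controls had an SD of 12.4. The share was thus below control after PKF118-310 in lines 240 and 352 and level with it in line 242. When the chromosome 1 copies were counted in, the share was 37.1%, 36.7% and 37.5% after PKF118-310, against 46.8%, 37.4% and 60.2% in controls. Other genes varied in this respect. Without copies, the SD over lines was also smaller after PKF118-310 for mt-Nd1, mt-Nd2 and mt-Cytb. It was larger for mt-Nd5 (2.29, against 1.01 in controls) and mt-Nd4 (0.79, against 0.38 in controls). The shares of mt-Nd1 were 18.7%, 25.1% and 18.2% after PKF118-310, against 15.6%, 21.1% and 9.49% in controls, higher in 3 of 3 lines. Its exact paired permutation p was 0.25, or 0.833 adjusted over the 20 ratios and shares computed. The shares of mt-Nd4, mt-Atp6 and mt-Atp8 were also higher in 3 of 3 lines. Because shares are parts of the same total, a lower mt-Co1 share goes with higher shares of other genes. The test relative to total mitochondrial mRNA called 0 of 17 mitochondrial genes, where 0.0968% of all genes tested were called (edgeR, smallest mitochondrial adjusted p = 0.709).

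Of the ratios between single genes, mt-Nd5 to mt-Cytb was chosen for mention after its values were seen, because it moved most evenly. There were 0.467, 0.312 and 0.454 counts of mt-Nd5 per count of mt-Cytb after PKF118-310, against 0.711, 0.541 and 0.728 in controls. All treated libraries lay below all controls, and line 242 did so with the others. The mean log2 ratio was -0.69 ± 0.10 (SD, n = 3 lines), with the smallest exact paired p possible (p = 0.25, or 0.833 adjusted over the 20 ratios and shares computed). Both genes lie on the plus strand, with mt-Nd6 between them on the other strand. The ratio of mt-Nd2 to mt-Cytb served as a contrast, at 0.512, 0.559 and 0.455 after PKF118-310, against 0.555, 0.569 and 0.408 in controls, and had a mean log2 ratio of 0.00 ± 0.14 (SD, n = 3 lines, exact paired p = 1).

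**Figure D3:**
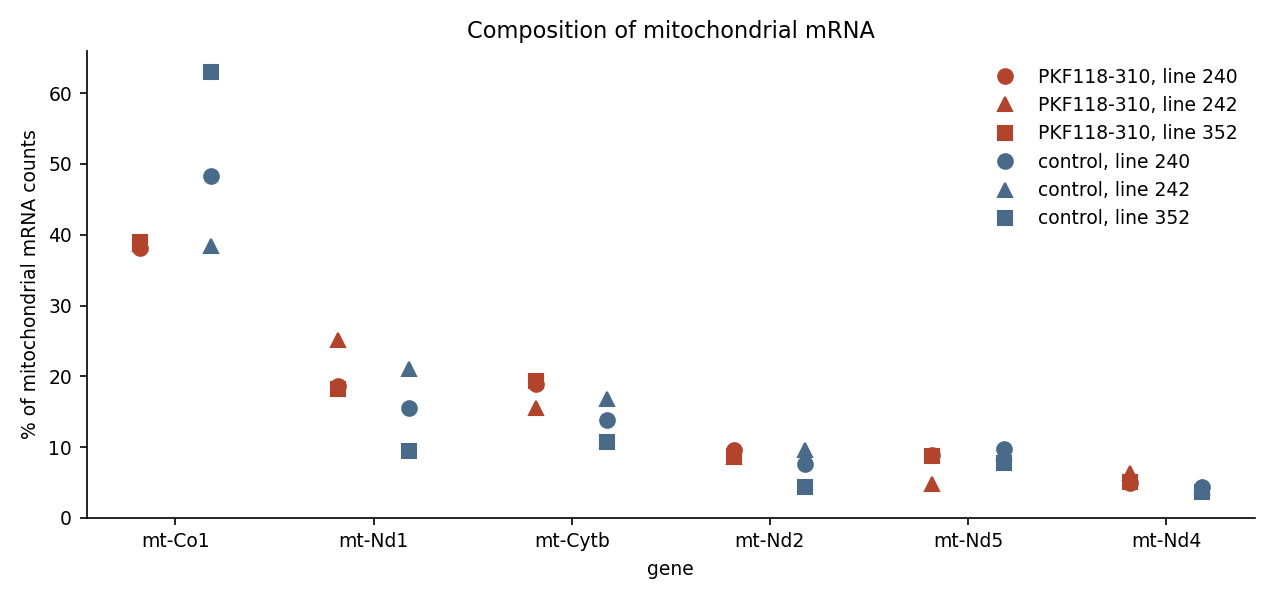
Share of mitochondrial mRNA counts from the 6 genes with the most counts, with PKF118-310 libraries left of controls for each gene. Each point is 1 library and its shape gives the line. The mt-Co1 share was 38.2 to 39.0% after PKF118-310 and 38.5 to 63.0% in controls, and treated line 242 stood apart for mt-Nd1 at 25.1% and mt-Nd5 at 4.83%.

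Whether mitochondrial genes were called as differing between lines depended on the lines in the fit. In the 3-line fit 5.32% of all genes and 0 of 17 mitochondrial genes were called as differing between lines. The smallest mitochondrial adjusted p was 0.0973, and 7 of these genes had an unadjusted p below 0.05 (edgeR). Between lines 240 and 352 alone, 12 of 20 mitochondrial genes differed, where 44.7% of all genes tested did. These small counts were not tested against the shares over all genes. In controls line 240 exceeded line 352 for mt-Cytb (3899 against 1838 CPM) and mt-Nd1 (4413 against 1628 CPM), while after PKF118-310 the pairs were close, at 4929 against 4400 CPM and 4877 against 4149 CPM. Over the counts of the mitochondrial genes compared, chi-square per degree of freedom between lines 240 and 352 was 22.6 for the PKF118-310 libraries, against 634 for the controls. Lines 240 and 242 stood at 806 for the PKF118-310 libraries, against 190 for the controls, and lines 242 and 352 at 1244 for the PKF118-310 libraries, against 1444 for the controls. Between the 2 lanes of a library it was 0.43 to 2.19. Chi-square grows with depth, and whether the lines respond unequally could not be tested with 1 library per line and group.

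Transfer RNA genes were almost uncounted. All 22 together received 1154 counts in the 6 libraries, 5 of them none, and 15 fewer than 10 in total. The tRNA sum was 132, 14 and 590 counts after PKF118-310 in lines 240, 242 and 352, against 112, 79 and 227 in controls. As a share of all counts this was higher after PKF118-310 in lines 240 and 352 and level in line 242, with a mean log2 ratio of 0.63 ± 0.67 (SD, n = 3 lines, exact paired p = 0.5). None of the 22 genes reached 10 counts in every library.

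The tRNA genes with counts were mostly those with room around them. On the same strand, 11 tRNA genes have over 60 bases free of other genes beside them, 9 have under 5, and 2 lie between. The first 11 received 586 counts and each had at least 3. The 9 without room received 564, of which mt-Tl1 alone held 551. In lines 240 and 242 these 9 genes received 0 counts in all 4 libraries. Among the 9, mt-Tk, mt-Tg and mt-Tr had 0 counts in every library. They lie between mt-Co2 and mt-Nd4l, within the stretch that the chromosome 1 copies span, so room and copied sequence were not separated for them. The tryptophan gene mt-Tw, shown above, has 311 free bases and received 64, 2 and 56 counts after PKF118-310, against 88, 34 and 29 in controls. The proline gene mt-Tp, at the end of the minus strand, received 33, 6 and 31 counts after PKF118-310, against 9, 31 and 16 in controls. Neither passed in any fit of PKF118-310 over control in which it was tested.

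The leucine gene mt-Tl1 was counted in line 352 alone. It has no free base on either side, since it abuts mt-Rnr2 and mt-Nd1, and it received 0 counts in all 4 libraries of lines 240 and 242. In line 352 it received 396 counts after PKF118-310 and 155 in the control, or 28.8 and 11.7 CPM. A count of 0 allows up to 3 counts, which are 0.949 and 4.96 CPM in the treated and 0.744 and 0.894 CPM in the control libraries of lines 240 and 242. Its counted CPM was therefore at least 5.80-fold higher in line 352 than in either other line after PKF118-310. In controls it was at least 13.1-fold higher. Of the 9 tRNA genes with under 5 free bases, 4 had a count in line 352 and 0 in lines 240 and 242. A difference in RNA level and one in how reads of abutting genes were assigned cannot be told apart. In lines 240 and 352 mt-Tl1 was called higher after PKF118-310 (log2 fold change 1.27, SE 0.29, edgeR adjusted p = 0.0185). This call rests on 1 line, since line 240 has no count.

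The chromosome 1 copies held most of the counts of the genes they match. Over the 5 genes covered along more than 95% of their length, namely mt-Co2, mt-Atp6, mt-Co3, mt-Nd3 and mt-Nd4l, the copies held 88.5%, 89.4% and 90.1% of the joint counts after PKF118-310, against 91.6%, 90.8% and 89.5% in controls. The split was thus nearly constant over libraries. For mt-Co2 and Gm28661, which are identical over 681 bases, the mitochondrial gene had 186, 212 and 693 counts after PKF118-310 and 173, 145 and 626 in controls. The copy had 1072, 1448 and 5119 counts after PKF118-310, against 1699, 1131 and 4231 in controls. Where the copy covers only part of the gene the balance was the reverse, and Gm29216, which matches 483 of the 1545 bases of mt-Co1, held 1.21 to 1.84% of the joint counts.

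Because reads from identical sequence cannot be told apart, the levels of these genes are uncertain. All 7 copies together stood at 1149, 6377 and 1356 CPM after PKF118-310, against 1309, 1117 and 1118 CPM in controls, highest in treated line 242 as the mitochondrial mRNAs were. Gene and copy added, mt-Co2 with Gm28661 stood at 398, 2744 and 422 CPM after PKF118-310, against 464, 380 and 367 CPM in controls. The sum was thus below control in line 240, whereas mt-Co2 alone was above it. The same held for mt-Co3 with Gm28437, at 275, 1679 and 309 CPM after PKF118-310, against 298, 265 and 296 CPM in controls. For mt-Atp6 with Gm10925 all treated libraries remained above all controls, at 350, 1537 and 421 CPM after PKF118-310, against 340, 334 and 280 CPM in controls. Per length the joint value of mt-Co2 was 582, 4012 and 617 RPKM after PKF118-310, against 679, 556 and 537 RPKM in controls. Reads that match gene and copy alike may be missing from such sums, since how they were counted is not given. In treated line 240, Gm28439 held 181 counts although it matches 876 of the 1378 bases of mt-Nd4, which held 4089. The joint values therefore give no ranking against mt-Co1. The 6 mRNA genes for which no such copy was found were mt-Nd1, mt-Nd2, mt-Atp8, mt-Nd5, mt-Nd6 and mt-Cytb. The mRNA gene with the most counts, mt-Co1, is not among them. The last 43 bases of mt-Atp8 are shared with mt-Atp6 and so with Gm10925, fewer than the 50 bases required. Sequence between the annotated copies was not searched, and mt-Atp8 lies between mt-Co2 and mt-Atp6. Of the counts of the 6 genes, mt-Atp8 made up 0.0117 to 0.0890%. Together these 6 made up 1.47%, 4.74% and 1.26% of counts after PKF118-310, against 1.33%, 1.53% and 0.561% in controls. Each treated share was above its own control, with a mean log2 ratio of 0.98 (n = 3 lines, exact paired p = 0.25), whereas for all 13 genes it was 0.66 and line 240 lay below control.

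**Figure D4:**
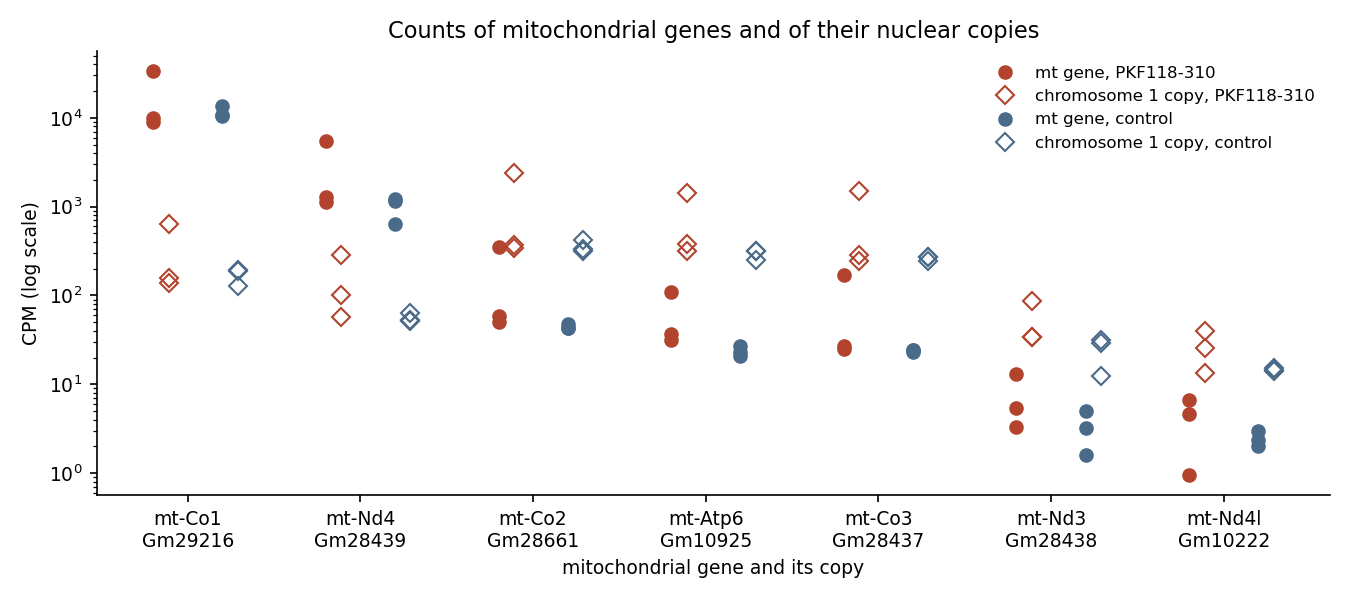
CPM on a log axis for 7 mitochondrial mRNA genes (filled circles) and their copies on chromosome 1 (open diamonds), with PKF118-310 left of control for each gene. Each point is 1 library. The copy exceeds the gene for the 5 genes it covers nearly whole and lies far below it for mt-Co1 and mt-Nd4.

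Nuclear genes that act on mitochondrial DNA and RNA were read from the same fits. In the 3-line fit 0 genes of any list were called. Genes called in lines 240 and 352 are named after their values were seen. Without line 242, the 32 genes for processing and decay of mitochondrial RNA had 7 called higher, where 5.01% of all genes were, 0 lower and 25 not called, with a median log2 fold change of 0.28, beside -0.01 over all genes. The 7 were Elac2, the nuclease that cuts the 3′ end of tRNAs, Trnt1, which adds their CCA end, Lrpprc, which stabilises mitochondrial mRNAs, and Tbrg4, Fastkd2, Ptcd3 and Rexo2. Elac2 had 83.5 and 95.7 CPM after PKF118-310 in lines 240 and 352, against 55.6 and 69.0 CPM in controls, and rose by 0.51 (SE 0.12, adjusted p = 0.0164). Tbrg4 had 129 and 163 CPM after PKF118-310, against 83.4 and 104 CPM in controls, and rose by 0.63 (SE 0.10, adjusted p = 0.00336). All 7 had a negative log2 ratio in line 242, from -1.20 for Elac2 to -0.42 for Rexo2, and the median of the list there was -0.51.

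By smallest p in the 3-line fit, the genes of that list were Dhx30, Fastkd3, Hsd17b10 and Pus1, with log2 fold changes of 0.26, 0.35, -0.28 and 0.30 (all adjusted p = 0.843). Of the 18 genes of mitochondrial DNA replication and the nucleoid, 17 were tested. In lines 240 and 352 Ssbp1, which binds single-stranded mitochondrial DNA, and Atad3a were called higher (0.46 and 0.62) and 0 lower. Over all genes 5.01% were called higher and 5.92% lower. Exog, Dguok, Lonp1 and Tfam had the smallest p over 3 lines, and Tfam, which packages the genome and starts its transcription, had a log2 fold change of -0.33 (SE 0.21, adjusted p = 0.843). The transcription list had 0 of 10 called in either fit, with a 3-line median of 0.09. In it the rRNA methyltransferase gene Tfb1m had the smallest p, and it stood at 8.23, 3.31 and 6.90 CPM after PKF118-310 in lines 240, 242 and 352, against 16.1, 8.64 and 11.9 CPM in controls. Its log2 fold change was -0.95 (SE 0.35, adjusted p = 0.842) over 3 lines. Mterf3, Mterf1a and Tefm followed with 0.44, 0.75 and 0.56.

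The translation factors had 1 of 12 called higher in lines 240 and 352, the elongation factor Gfm1 (0.40), where 5.01% of all genes were. Over 3 lines Gfm2, Mtif2, Oxa1l and Mtif3 had the smallest p, with 0.31, 0.26, -0.18 and -0.27. Regulators of mitochondrial biogenesis had 1 of 8 called higher, the coactivator Pprc1 (0.48), beside the same 5.01% of all genes. Their smallest p belonged to Gabpa, Esrra, Yy1 and Myc, with 3-line values of -0.35, 0.50, -0.19 and -0.34. The mitochondrial stress list had 5 of 13 called higher and 0 lower in lines 240 and 352, where 5.01% of all genes were called higher and 5.92% lower. The 5 called were the chaperonin genes Hspd1 and Hspe1 (0.67 and 0.61) and the stress response genes Atf4, Atf5 and Trib3 (0.44, 1.03 and 1.25). Line 242 split this group, with Atf4, Atf5 and Trib3 above control (0.84, 1.64 and 5.17) and Hspd1 and Hspe1 below it (-1.70 and -0.89).

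The nuclear-encoded subunits of the respiratory chain and ATP synthase assemble with the mitochondrially encoded ones and had lower medians. Of 85 genes 79 were tested in the 3-line fit, with a median log2 fold change of -0.16, 1 higher in all 3 lines and 17 lower in all 3, where 15.9% of all genes were higher and 17% lower in all 3. Their within-line medians were 0.11, -0.69 and 0.01 in lines 240, 242 and 352, beside 0.23, 1.79 and 0.56 for the 13 mitochondrial mRNAs. In lines 240 and 352, 2 of 80 were called higher (Atp5g1 and Uqcrq) and 4 lower (Cox6a1, Cox7a2l, Ndufa6 and Ndufv3), where 5.01% of all genes were called higher and 5.92% lower, with a median of 0.06. By smallest 3-line p they were Cox6a1, Ndufa6, Ndufv3 and Atp5g2, with log2 fold changes of -0.48, -0.46, -0.40 and -0.44 (all adjusted p = 0.842). The difference between the sets was not tested.

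Other RNA classes in the same libraries were read beside these values. The nuclear-retained RNAs differed in direction. Malat1 was called higher in lines 240 and 352 (0.66, adjusted p = 0.00819), with a ratio of 2.14 in line 242, and 2900097C17Rik was called higher there too (0.37, adjusted p = 0.0369) but had a ratio of -0.63 in line 242. Neat1 had ratios of -0.27, 2.66 and -0.24 in lines 240, 242 and 352, and Kcnq1ot1 of 0.31, 1.35 and 0.14. Among abundant RNAs without a poly(A) tail and their neighbours, Gm42418 stood at 1027, 2793 and 3196 CPM after PKF118-310, against 3823, 1532 and 3807 CPM in controls, so it was higher than control in line 242 alone. Lars2, Rn7sk and Gm26917 had 3-line values of -0.39, 1.46 and -0.13 with adjusted p from 0.857 to 0.977. Of the 16 thymocyte and transgene markers, 2 were called lower in lines 240 and 352 (Cd3d by 0.66 and Dntt by 1.27), 0 higher and 14 neither. Over all genes 5.92% were called lower and 5.01% higher. The within-line medians of these markers were 0.01, -0.65 and -0.46 in lines 240, 242 and 352. Bcl11b and Rag1 were at -0.37 and -0.48 in the fit of lines 240 and 352, with adjusted p of 0.0617 and 0.114 (edgeR). The surface marker Thy1 stood at 1244, 693 and 1446 CPM after PKF118-310, against 948, 1211 and 1282 CPM in controls, and Cd8a at 1060, 359 and 464 CPM after PKF118-310, against 879, 636 and 629 CPM in controls. Of the 19 markers of other cell types 3 were tested, of which Gzma, found in cytotoxic cells, fell by 0.99 in lines 240 and 352 and Pecam1 and Itgam were at -0.17 and -0.33. In line 242 Itgam stood at 36.4 CPM after PKF118-310, against 17.9 CPM in the control. There Col1a1, Cdh5 and Epcam had 14, 11 and 11 counts (23.1, 18.2 and 18.2 CPM) after PKF118-310, against 0 in the control, while Lyz2, S100a8, Hbb-bs, Krt18 and Ncr1 had 0 counts in all 6 libraries. The part of any of these in the mitochondrial values was not tested.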

How the data were processed

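Raw counts per gene, as deposited by the authors, were used without change. They were given for 12 files, 1 for each of 2 lanes of 6 stranded poly(A) libraries, and are not normalized. HISAT2, HTSeq, edgeR and the mm10 build appear in the submitters' processing notes, while TopHat is the aligner in the paper's methods. How reads with several matches were counted is not given in the sources used here. Lane counts were summed, and positions (starts shifted to count from 1) and sequences were checked against GENCODE vM21. Copies were sought with BLAST+ 2.17.0 among all other annotated transcripts.

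Tests were run with edgeR 4.0.16 under R 4.3.3 (filterByExpr, TMM, quasi-likelihood F test, line as block, Benjamini-Hochberg adjusted p below 0.05). CPM in the text is the count of a gene scaled to the library total, and RPKM is CPM per kilobase of gene length. Within-line log2 ratios use TMM-scaled CPM and a prior count of 2. Log2 fold changes are PKF118-310 over control. Same-numbered libraries come from the same line, and their deviations correlated at 0.67, 0.30 and 0.79 in lines 240, 242 and 352, so they were treated as paired. The p-values over 3 lines measure the spread between 3 lines with 1 library per group, and in edgeR this spread is partly estimated from all genes together. Shares were compared by exact sign flips within lines with scipy 1.17.1.

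Alternatives were no block, DESeq2 1.42.0 and its size factors, scaling from nuclear genes, other filters, each lane alone, limma voom 3.58.1 with sample weights, unpaired tests, genes without copies, and each line left out. Adding the copies to mitochondrial mRNA was chosen after seeing the data. All mRNA and rRNA genes and the 3 tRNA genes with most counts are named, with up to 4 genes of smallest p from each nuclear list. Members and lists were chosen with earlier results of these data known. Scripts were tested on simulated data.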

Additional observations from a re-analysis of the deposited data

Results flagged for a closer look

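Within lines, 3 of the well-counted mitochondrial genes moved in opposite directions, and with 1 library per line and group the difference was not tested. The log2 ratio of mt-Co1 was 1.79 in line 242, against -0.44 in line 240 and -0.30 in line 352. For mt-Nd5 it was 0.87 in line 242 and 0.56 in line 352, against -0.26 in line 240. For mt-Rnr1 it was 4.81 in line 242 and 0.53 in line 352, against -0.20 in line 240. Counts outside the mitochondrial genome carried the same sequences, and the 7 copies on chromosome 1 reached 6377 CPM in treated line 242, above the 1117 CPM of its control.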

How the results depend on the processing

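Over all genes, 0 calls in the 3-line fit became 312 with no filter on low counts, 45 with DESeq2, 801 with limma voom and 3 to 1285 with single lines left out, the highest without line 242. Calls among mitochondrial genes numbered 3 with no filter (mt-Atp6, mt-Co2 and mt-Rnr2) and 0 to 4 with single lines left out, and 0 under the other alternatives. Without the paired block both counts were 0. Differences between lines were called for 10 of 32 mitochondrial genes with no filter, where 3009 of 28529 genes were called. They were called for 0 to 12 mitochondrial genes with single lines left out. The highest count was without line 242, where 44.7% of all genes were called. The median of the 13 mRNA genes stayed positive, from 0.46 without line 242 to 1.36 without line 240. Direction reversed for mt-Co1 with limma voom (-0.11) and without line 242, with a range of -0.38 to 0.70 over lines left out. It reversed for mt-Tw, itself near 0, with lane 2 alone (0.24), limma voom (0.26) and without line 242 (range -0.57 to 0.32). The mRNA share had a mean log2 ratio of 0.67 with the copies added, and the rRNA to mRNA ratio 0.99, or 0.68 without the 7 genes that have copies. Of 193 gene values under alternatives, 182 kept direction and side of the threshold. These include the DESeq2 values of mt-Atp8 and mt-Nd4l, which kept direction but had no adjusted p. The causes were not tested. Treated line 242 had the fewest counts, 604984, and the tests of shares cannot pass the threshold at this size.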
